A study of Oreochromis niloticus with 24 samples.

Results

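The genes described here are 190 genes that were higher in LH cells than in FSH cells of male Nile tilapia and that the male table lists but the female table does not. They were chosen from these data: the mean of log2(NR + 1) over 4 male LH libraries had to exceed that over 4 male FSH libraries by more than 1, where NR is the normalized read count of a gene in a library. Another 14 named genes were left out by the same rule, of which 13 passed this limit and are not in the female table. The remaining gene, ptprm, passed the limit too but is in both tables. Its LH minus negative difference was 1.97 and its FSH minus negative difference was -6.11. The male table holds 2392 genes, of which 1309 are also in the female table and 1083 are not, and both tables together hold 2932. The LH to FSH difference therefore chose the members and is given below as a description. Counts of members past a threshold in it are printed beside the share over all genes of the table, and nothing is read from them. The difference from the negative fraction had a part in the choice too, because the tables list only genes that exceeded the negative fraction in LH or FSH cells, and it is treated in the same way.

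Pituitaries of mature Nile tilapia of the Lake Manzala strain were dispersed and sorted by fluorescence. The fish carried 2 transgenes, of which LH:RFP marks LH cells in red and FSH:GFP marks FSH cells in green, and all fractions, the negative cells included, came from these double-labelled fish, bred from single-labelled parents. Per the labels, 20 pituitaries were pooled for each of 4 sorts per sex, while the study's text gives pool sizes that varied between sorts, and each sort gave an LH fraction, an FSH fraction and a negative fraction without fluorescence. The 12 male libraries, 4 of each fraction, were used, and a library is called by its fraction and the replicate number of its title. Libraries with the same number were taken to come from the same sort, which is an assumption. Cells positive for both colours were not analysed here. Fish were pooled, so the spread between libraries is that between sorts of pools and not between single fish.

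In teleost fish LH and FSH are made by separate cells of the pituitary, whereas in mammals the same gonadotroph can make both. LH cells carry the beta subunit gene lhb and FSH cells carry fshb, and both cell types respond to gonadotropin-releasing hormone (GnRH) from the brain through receptors that raise calcium and cyclic AMP. The negative fraction holds the other endocrine cells, support cells, vessels and blood cells of the gland, so a gene can be high in LH cells and also be used elsewhere in the pituitary.

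The sorted cells carried their markers. In males lhb stood at 3970 to 10131 NR in LH libraries, 9.36 to 30.6 NR in FSH libraries and 2.64 to 34.3 NR in negative libraries, while fshb stood at 30489 to 66628 NR in FSH libraries and 85.2 to 340.5 NR in LH libraries. The male libraries held 173803 to 2004647 reads on the genes of the table, and 3 reads, taken as the limit of detection, were worth 1.22 to 4.83 NR. Female libraries held 69091 to 520458 reads on the genes of their table, which is another set of genes, so these counts do not compare sequencing depth. The study's text gives fewer reads per library on average for females than for males. The part of depth in a gene's absence from the female table was not tested. A gene that the female table does not list was not shown to be absent from female LH cells, and female values of the members were not analysed here. No gene of the marker lists for macrophages (13 genes), lymphocytes (6), erythrocytes (6), folliculostellate and stem cells (7) or other endocrine cells (8) was in the male table, and no member was on the lists for endothelium, mural cells or neurons and glia. The endothelial cadherin gene cdh5, which only the male table lists, had an LH minus FSH difference of 1.73. It is absent from the members because the rule leaves it out by name. The other endothelium gene of the male table, esamb, went the other way, at -2.05. Markers of cells that stay in the negative fraction could hardly enter the table, since it lists only genes above that fraction. In bulk libraries fewer cells of a type and less RNA per cell cannot be told apart.

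LH libraries differed from each other in many members. LH library 1 held the most lhb, 10131 NR against 3970 to 4353 NR in the other LH libraries. It was the lowest LH library for 74 of the 190 members (38.9%) and the highest for 73 (38.4%). Over all genes of the table these shares were 23.4% and 47.2%. LH library 4 was the lowest for 75 members (39.5%) and the highest for 20 (10.5%), beside 40.6% and 19.6% over all genes of the table. FSH libraries also differed: the median member stood at 12.2 and 12.04 NR in FSH libraries 1 and 2, where fshb was 30489 and 30774 NR, and at 8.60 and 7.19 NR in FSH libraries 3 and 4, where fshb was 66628 and 66403 NR. Values without LH library 1 are given for members in which it lay below every negative library, and for the counts.

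The LH mean was the highest of the 3 fractions in all 190 members, against 660 of the 2392 genes of the table (27.6%), which the choice of members largely fixes. The median level of the members was 57.5 NR in LH, 10.2 NR in FSH and 17.4 NR in negative cells (medians over genes of the mean of 4 libraries). On the log2(NR + 1) scale the median difference was 2.22 for LH minus FSH, with a range of 1.01 to 6.99, and 1.30 for LH minus negative, with a range of 0.51 to 3.59. FSH minus negative had a median of -0.76 and ran from -5.94 to 2.35. The FSH mean lay below the negative mean in 142 members (74.7%), against 281 of all 2392 genes of the table (11.7%). It lay more than 1 below in 85 members, within 1 in 98 and more than 1 above in 7. The typical member was thus present in LH cells, lower in the negative fraction and lowest in FSH cells. The typical gene of the table was higher in FSH than in negative cells, by a median of 1.39. The choice of members favours low FSH values, so nothing is read from this contrast. In the 170 genes of both tables that passed the same limit in males, the FSH mean lay below the negative mean in 128 (75.3%).

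**Figure D1:**
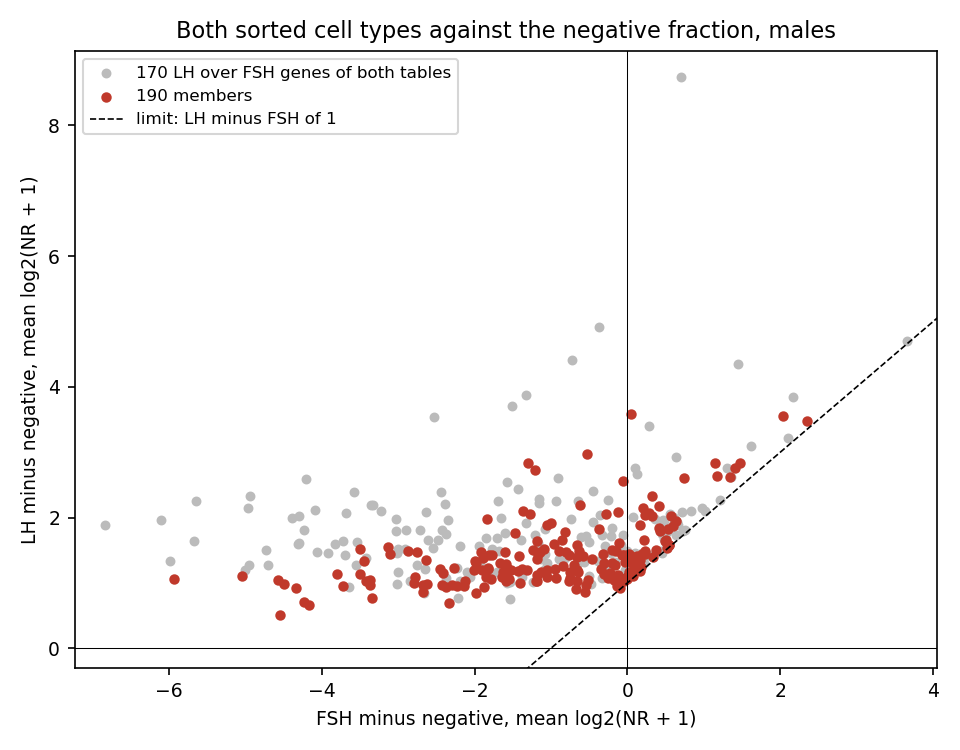
Each point is a gene, with its FSH minus negative difference on the x axis and its LH minus negative difference on the y axis, both as differences of mean log2(NR + 1) over 4 male libraries per fraction. Red points are the 190 members and grey points are the 170 genes of both tables that passed the same limit in males, and the dashed line marks that limit. Most members lie left of 0 on the x axis, and their LH minus negative values lie between 0.51 and 3.59.

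These differences were fitted by limma on log2(NR + 1) over the 12 male libraries, and a gene was called when the difference was beyond 1 and its adjusted p, over all 2392 genes, was below 0.05. By this rule 176 members were called higher in LH than in FSH cells, beside a background of 14.9% of all genes, and 148 had every LH library above every FSH library, beside 14.7%. Both counts follow from the choice of members and nothing is read from them. Against the negative fraction 140 members were called higher in LH cells, beside a background of 51.2%, and in 105 all LH libraries lay above all negative libraries, beside 55%. In FSH cells 83 members were called lower than in negative cells, beside 7.53% of all genes, and 5 were called higher, beside 75.8%. These counts depended on the scaling: with TMM, another way to scale libraries to each other, over the genes of the table they were 8, 149 and 0, and the median LH minus negative difference was 0.39. All FSH libraries lay below all negative libraries in 74 members (background 6.81%) and above them in 2 (background 72.1%). Between same-numbered libraries, as the choice of members leads to, LH exceeded FSH in 188, 189, 189 and 189 members in replicates 1 to 4. In 185 members this held in every replicate.

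The nearest set for comparison is the 170 genes that passed the same limit in males but are also in the female table. Their median LH minus FSH difference was 2.97, against 2.22 in the members, and their median LH level was 111.6 NR, against 57.5 NR. FSH levels were close, with medians of 9.16 NR in the genes of both tables and 10.2 NR in the members. Called lower in FSH than in negative cells were 91 of the genes of both tables (53.5%) and 83 members (43.7%). LH exceeded negative by 1.5 or less in 137 members (72.1%) and in 60 of the genes of both tables (35.3%), and by more than 2 in 25 members (13.2%) and 50 of the genes of both tables (29.4%). Over the whole table these shares were 78.1% and 8.95%. Genes also entered the table through FSH cells, and 75.8% of its genes were called higher in FSH than in negative cells, against 2.63% of the members. Nothing is therefore read from how near either set lies to the whole table. No test is given, because the same libraries chose both sets.

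The 15 members with the largest LH minus FSH difference ran from 4.54 to 6.99. In all 15 every LH library was above every FSH library and every FSH library was below every negative library. Their LH minus negative differences were small beside this, at 0.51 to 1.55, and their FSH minus negative differences were -5.94 to -3.10. The first of these ranges rests on LH library 1: without it LH minus negative ran from 1.26 in strc1 to 2.43 in LOC109202788.

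**Figure D2:**
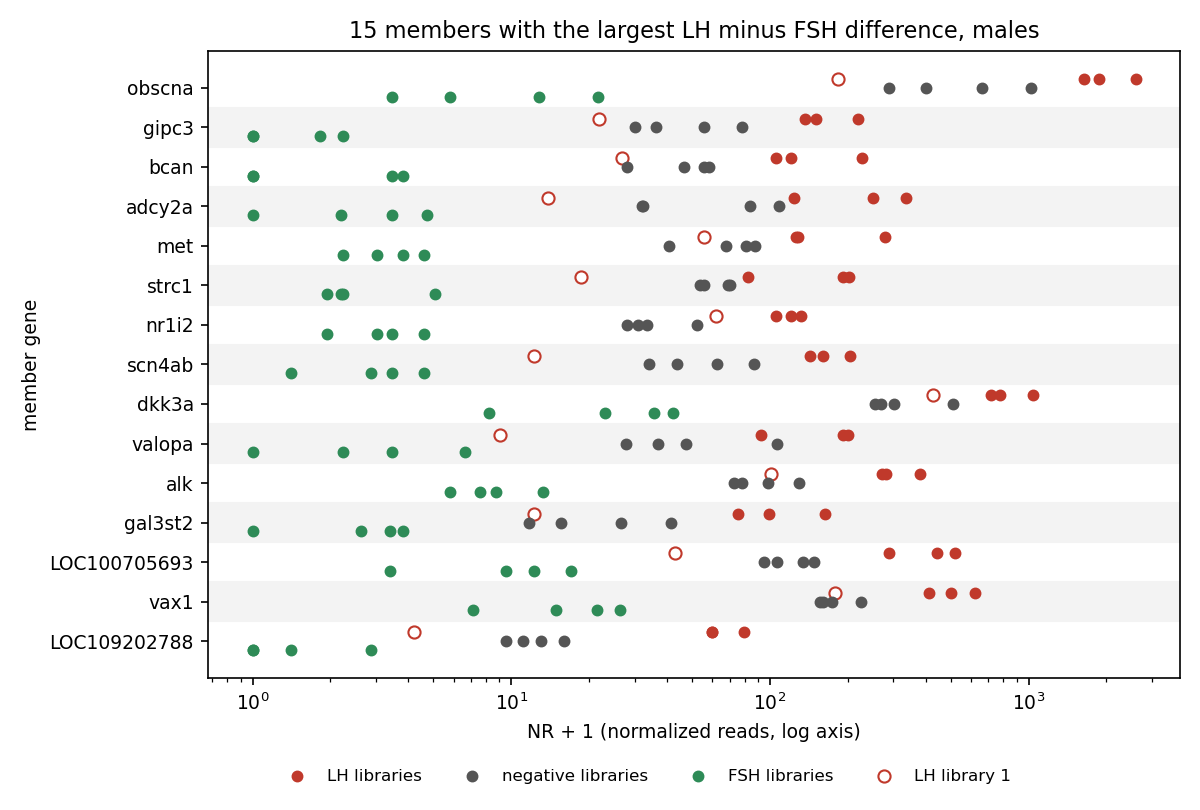
Values of the 15 members with the largest LH minus FSH difference in the 12 male libraries, as NR + 1 on a log axis, with 4 points per fraction. Open circles are LH library 1, which is the lowest LH library in all 15 genes and lies below every negative library in 9 of them, while the green FSH points are the lowest of each gene.

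The largest difference belonged to obscna (LOC100700801, linkage group 23, positions 45029240 to 45077400), a gene for obscurin, a giant protein known from muscle in mammals. Its values were 182, 1871, 2592 and 1629.9 NR in LH libraries 1 to 4, 20.6, 11.8, 2.46 and 4.80 NR in FSH libraries and 287, 1018, 661 and 402 NR in negative libraries. LH libraries 2 to 4 were the highest of all, every FSH library was the lowest, and LH library 1 lay under all 4 negative libraries. LH minus negative was 1.05 with LH library 1 and 1.91 without it. The mean was 1569 ± 1011 NR (SD, n = 4) in LH and 592 ± 324 NR (SD, n = 4) in negative cells, and the LH minus FSH difference was 6.99 ± 0.70 (limma SE).

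gipc3 (linkage group 15, positions 33793380 to 33808216), an adaptor protein with a PDZ domain that is needed for hearing in mice, followed at 6.14. It held 20.9, 150.3, 219 and 136 NR in LH libraries, 0, 0.816, 1.23 and 0 NR in FSH libraries and 35.3, 76.9, 54.5 and 29.2 NR in negative libraries. FSH cells were at or under the limit of detection in all 4 libraries, and LH library 1 again lay under every negative library, so that LH minus negative was 1.10 with it and 1.83 without it. strc1, a stereocilin gene whose mammalian relative is known from inner ear hair cells, held 17.7, 191, 202 and 81.6 NR in LH, 0.936, 4.08, 1.23 and 1.20 NR in FSH and 54.6, 69.4, 67.6 and 52.7 NR in negative libraries. Its negative libraries were close together and lay between LH library 1 and the other LH libraries, and LH minus negative was 0.51 with LH library 1 and 1.26 without it. clrn2, a clarin gene also known from hair cells and named here after its values were seen, stood at 20.9 to 54.8 NR in LH and 0 to 8.60 NR in FSH libraries, and these did not overlap.

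Several receptors were among the highest differences. The receptor tyrosine kinase gene met, the receptor of hepatocyte growth factor, held 54.7, 128, 278 and 125 NR in LH, 2.81, 2.04, 1.23 and 3.60 NR in FSH and 39.6, 79.9, 66.8 and 86.4 NR in negative libraries. FSH libraries did not overlap with either of the others, while LH library 1 fell within the range of the negative libraries. Its ligand gene hgfa was a member too, named here after its values were seen, at 43.4, 19.7, 16.7 and 53.95 NR in LH, 4.68, 5.31, 4.91 and 6.00 NR in FSH and 27.8, 4.52, 9.66 and 22.4 NR in negative libraries. alk, another receptor tyrosine kinase, held 99.7, 279, 379 and 269.8 NR in LH, 6.55, 7.75, 12.3 and 4.80 NR in FSH and 71.8, 128, 77.3 and 97.6 NR in negative libraries, and its reads are uncertain because the annotated gene LOC102081746 overlaps it. nr1i2, the pregnane X receptor that senses steroids and foreign compounds in mammals, was the only 1 of the 15 in which all LH libraries lay above all negative ones, at 61.1, 119, 131 and 104 NR against 29.99, 51.3, 32.5 and 26.9 NR, with 0.936, 2.04, 2.46 and 3.60 NR in FSH libraries.

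The 2 opsins among the receptors had low FSH values and a wide spread in LH cells. valopa (linkage group 13, positions 27507543 to 27525651), a vertebrate ancient opsin known as a light receptor outside the visual pathway, held 8.04, 191, 199.9 and 91.6 NR in LH, 5.62, 2.45, 1.23 and 0 NR in FSH and 26.8, 106, 46.6 and 35.9 NR in negative libraries. LH library 1 was close to the FSH libraries and below all negative libraries, and LH minus negative was 0.66 with it and 1.68 without it. opn8b held 3.22 to 41.7 NR in LH, 0 to 0.936 NR in FSH and 2.24 to 12.3 NR in negative libraries. The histamine receptor gene hrh2b stood at 1.61, 11.2, 21.9 and 45.2 NR in LH and 0 to 0.816 NR in FSH libraries.

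Of the 19 receptors and receptor partners 18 were called higher in LH than in FSH cells (background 14.9%). In FSH cells 11 were called lower than in negative cells (background 7.53%), and the median FSH minus negative difference of the 19 was -1.41. Over all members the called shares were 92.6% and 43.7%, and the first follows from the choice of members. Members named from here to the end of the paragraph were picked after their values were seen. The netrin receptor gene unc5a had narrow groups that did not overlap, at 212, 282, 212 and 205 NR in LH, 30.9, 23.3, 36.9 and 34.8 NR in FSH and 85.7, 107, 62.4 and 88.6 NR in negative libraries. adcyap1r1a, a receptor of the peptide PACAP, held 70.8, 64.6, 57.3 and 85.3 NR in LH and 12.2, 39.2, 25.8 and 16.8 NR in FSH libraries, with negative libraries at 11.4 to 51.4 NR. gfra4b, a co-receptor for ligands of the GDNF family, held 90.1, 53.4, 27.1 and 15.1 NR in LH and 1.87, 3.26, 7.37 and 1.20 NR in FSH libraries. Here LH library 1 was the highest of the group, the opposite of obscna and valopa. The orphan receptor gene gpr158b held 56.3, 173, 192 and 166 NR in LH, 19.7, 26.5, 15.97 and 13.2 NR in FSH and 47.1, 70.9, 54.5 and 65.1 NR in negative libraries, and LH library 1 lay within the negative range. The receptor genes cnr1 (cannabinoids), rxfp3.3a1 (relaxin family peptides) and gpr3 had LH minus FSH differences of 1.56, 2.52 and 1.95.

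Ion channels, channel subunits and transporters numbered 20. Of these, 17 were called higher in LH than in FSH cells (background 14.9%) and 11 lower in FSH than in negative cells (background 7.53%). scn4ab, a voltage-gated sodium channel known from muscle, held 11.3, 142, 203 and 159 NR in LH, 1.87, 0.408, 2.46 and 3.60 NR in FSH and 33.2, 85.9, 61.5 and 42.6 NR in negative libraries. LH library 1 was again below every negative library, and LH minus negative was 0.71 with it and 1.65 without it. kcnj5, a potassium channel opened by G proteins, was different, with 73.98, 30.9, 19.8 and 21.3 NR in LH, 2.81, 2.04, 0 and 0 NR in FSH and 2.14, 3.02, 5.27 and 4.49 NR in negative libraries. All LH libraries lay above all others, LH library 1 was the highest, and the LH minus negative difference of 2.83 was among the larger ones. trpc6, a cation channel gated by lipids, had 27.3, 22.5, 15.6 and 17.6 NR in LH, 0.936, 0.408, 1.23 and 1.20 NR in FSH and 7.50, 3.02, 4.39 and 2.24 NR in negative libraries. Its 3 fractions did not overlap, but FSH libraries held at most 1 read each. Negative libraries 2 and 4 were also under the limit of 3 reads. Auxiliary subunits of glutamate receptors were present in cnih3, at 70.1 NR in LH and 7.16 NR in FSH cells (means of 4), and neto2, at 19.9 and 1.52 NR. The counts of cnih3 are uncertain, because LOC109194884 overlaps it.

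The 16 signalling enzymes and calcium binders included 15 called higher in LH than in FSH cells (background 14.9%). They also included 8 called lower in FSH than in negative cells (background 7.53%). adcy2a, an adenylyl cyclase that makes cyclic AMP, held 12.9, 250.0, 336 and 123 NR in LH, 3.74, 2.45, 0 and 1.20 NR in FSH and 31.1, 107, 82.6 and 31.4 NR in negative libraries. FSH libraries held few reads, and LH libraries 2 to 4 were above all others, but LH library 1 was under the negative range, and LH minus negative was 0.99 with it and 1.98 without it. Its reads are uncertain because LOC112848192 and LOC109204221 overlap it. The calcium-binding parvalbumin genes pvalb9 and pvalb8 had means of 33.4 and 17.1 NR in LH cells against 0.402 and 1.04 NR in FSH cells. camk2n2, an inhibitor of the calcium-dependent kinase CaMKII, was high in all fractions, with 465, 611, 729 and 626 NR in LH, 330.4, 386, 263 and 199 NR in FSH and 261, 305, 206 and 408 NR in negative libraries. FSH and negative libraries overlapped, so that only LH cells stood apart.

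A list of 72 GnRH signalling genes was drawn up with earlier results of these data known. Of these, 20 genes (19 symbols) were in the male table and 3 were members, beside 190 of the 2392 genes of the table. Of the 20, 3 were called higher in LH cells (background 14.9%) and 6 higher in FSH cells (background 613 of 2392 genes), and 11 were not called. Nothing is read from these counts. The median LH minus FSH difference of the 20 was -0.49, near that of all genes of the table, -0.54. The adenylyl cyclase gene adcy3b held 212, 112, 78.1 and 56.5 NR in LH, 58.97, 42.4, 46.7 and 25.2 NR in FSH and 47.1, 28.6, 21.96 and 17.9 NR in negative libraries, and LH and FSH libraries overlapped. The phosphatase gene dusp4, which acts on MAP kinases, held 508, 236, 199 and 233 NR in LH and 96.4, 82.4, 62.7 and 285 NR in FSH libraries, where FSH library 4 reached the LH range. Of 38 listed gonadotroph regulators, 12 genes (11 symbols) were in the male table and none was a member. With only 12 genes, nothing is read from this.

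Cell adhesion and matrix genes formed the largest named group, with 25 members. Of these, 24 were called higher in LH than in FSH cells (background 14.9%) and 12 lower in FSH than in negative cells (background 7.53%). bcan, brevican, a proteoglycan of the brain's extracellular matrix, held 25.7, 119, 226 and 104 NR in LH, 2.81, 2.45, 0 and 0 NR in FSH and 54.6, 57.3, 45.7 and 26.9 NR in negative libraries. LH library 1 fell below every negative library, and LH minus negative was 1.05 with it and 1.65 without it. cntn3a.1, a contactin of neurons, was steadier, with 85.2, 109.6, 81.2 and 55.2 NR in LH, 6.55, 4.90, 3.69 and 0 NR in FSH and 32.1, 48.2, 43.04 and 32.5 NR in negative libraries, and all LH libraries were above all negative ones. itga3, an integrin subunit, was the most abundant gene of the group, with 584, 697, 1342 and 535 NR in LH, 264, 286, 292 and 162 NR in FSH and 451, 446, 329 and 356 NR in negative libraries. The 3 fractions did not overlap. Genes of synapse-forming adhesion proteins, named after their values were seen, were nlgn1 and nlgn3 (neuroligins) with LH minus FSH differences of 2.60 and 1.82, and slitrk2, slitrk3 and slitrk6 with 2.96, 1.44 and 2.61. The cadherin genes cdh18, cdh13, cdh7 and cdh4 had differences of 3.29, 2.55, 1.86 and 1.38. Reads of nlgn1, cdh13 and cdh4 are uncertain, since other annotated genes overlap them.

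Members assigned to secreted proteins numbered 12, all of them called higher in LH than in FSH cells (background 14.9%). They include dla and rgmb, named after their values were seen, whose products are bound to the membrane. In FSH cells 8 were called lower than in negative cells (background 7.53%). dkk3a (linkage group 1, positions 20951629 to 20958009), of the dickkopf family of secreted proteins, was the most abundant of them, with 425, 718, 1041 and 777 NR in LH, 41.2, 34.7, 22.1 and 7.19 NR in FSH and 269, 511, 254 and 302 NR in negative libraries. FSH libraries were far below both other fractions, and LH library 1 lay within the negative range. lgi1b, a secreted protein known from neurons, held 130.3, 202, 288 and 154 NR in LH, 16.8, 4.49, 13.5 and 6.00 NR in FSH and 51.4, 85.9, 82.6 and 52.7 NR in negative libraries, with no overlap. cartl stood at 1.61, 33.7, 46.9 and 26.4 NR in LH and 0 to 2.40 NR in FSH libraries, and LH library 1 lay within the FSH range while the other LH libraries lay above it. enpp2, which encodes autotaxin, an enzyme that makes the signalling lipid lysophosphatidic acid, had means of 50.1 NR in LH, 7.20 NR in FSH and 23.98 NR in negative cells.

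Cytoskeletal genes other than obscna were lower in level. Of the 12 in this group 11 were called higher in LH than in FSH cells (background 14.9%). In FSH cells 6 were called lower than in negative cells (background 7.53%). The neurofilament genes nefh and nefl held 101, 70.2, 44.8 and 21.3 and 69.2, 37.9, 20.8 and 28.9 NR in LH libraries, against 7.49, 13.5, 2.46 and 1.20 and 11.2, 4.49, 1.23 and 1.20 NR in FSH libraries. prph, peripherin, a related filament of peripheral neurons named after its values were seen, held 64.3, 14.04, 5.21 and 13.8 NR in LH and 14.98, 2.04, 2.46 and 0 NR in FSH libraries. In all 3 filament genes LH library 1 was the highest library, and in prph it carried most of the LH signal: without it the LH minus FSH difference was 1.63, against 2.27 with it.

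The 7 synaptic and vesicle genes had a median FSH minus negative difference of -0.20 and the 9 transcription regulators one of -0.76. syn2, a synapsin that binds vesicles, held 36.99, 166, 239 and 173 NR in LH, 4.68, 10.2, 1.23 and 7.19 NR in FSH and 43.9, 78.4, 60.6 and 67.3 NR in negative libraries, and was the only synaptic gene of the 7 called lower in FSH than in negative cells. syt16 and shank2, a synaptotagmin and a scaffold protein, held 326, 434, 638 and 621 and 172, 372, 446 and 354 NR in LH libraries against 156, 169, 199 and 157 and 146, 109, 87.2 and 81.5 NR in FSH libraries. Among the transcription regulators vax1, a homeobox gene needed for ventral forebrain development in mice, held 177, 499, 619.6 and 412 NR in LH, 25.3, 13.9, 6.14 and 20.4 NR in FSH and 224, 155, 173 and 159 NR in negative libraries. FSH libraries were lowest by a wide margin, and LH library 1 fell within the negative range. meox2, a homeobox gene, had the largest LH minus negative difference of the members at 3.59, with 33.8, 26.7, 12.5 and 6.27 NR in LH, 0.936, 1.63, 0 and 0 NR in FSH and 0, 0, 3.51 and 0 NR in negative libraries. Both other fractions were at or near 0 there. zbtb16, a zinc finger repressor, had 529, 527, 724 and 780.5 NR in LH, 124, 158, 203 and 272 NR in FSH and 274, 311, 289 and 366 NR in negative libraries, 3 ranges without overlap, and zeb2 and lef1, a repressor and a factor of the Wnt pathway, had LH minus FSH differences of 1.93 and 2.60.

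All 5 metabolic enzymes were called higher in LH than in FSH cells (background 14.9%), as the choice of members leads to. gal3st2, a sulfotransferase, held 11.3, 98.3, 162 and 74.03 NR in LH, 2.81, 1.63, 0 and 2.40 NR in FSH and 10.7, 25.6, 40.4 and 14.6 NR in negative libraries, with LH library 1 inside the negative range. cyp26a1, which breaks down retinoic acid, held 57.9, 81.5, 70.8 and 28.9 NR in LH, 13.1, 12.2, 13.5 and 7.19 NR in FSH and 4.28, 13.6, 18.4 and 20.2 NR in negative libraries. FSH and negative libraries overlapped, and the LH libraries were above both. oplah, 5-oxoprolinase of the glutathione cycle, ranged widely in LH libraries, at 548, 277, 199.9 and 110.4 NR, and overlapped with FSH libraries at 149.8, 132, 74.9 and 51.6 NR.

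**Figure D3:**
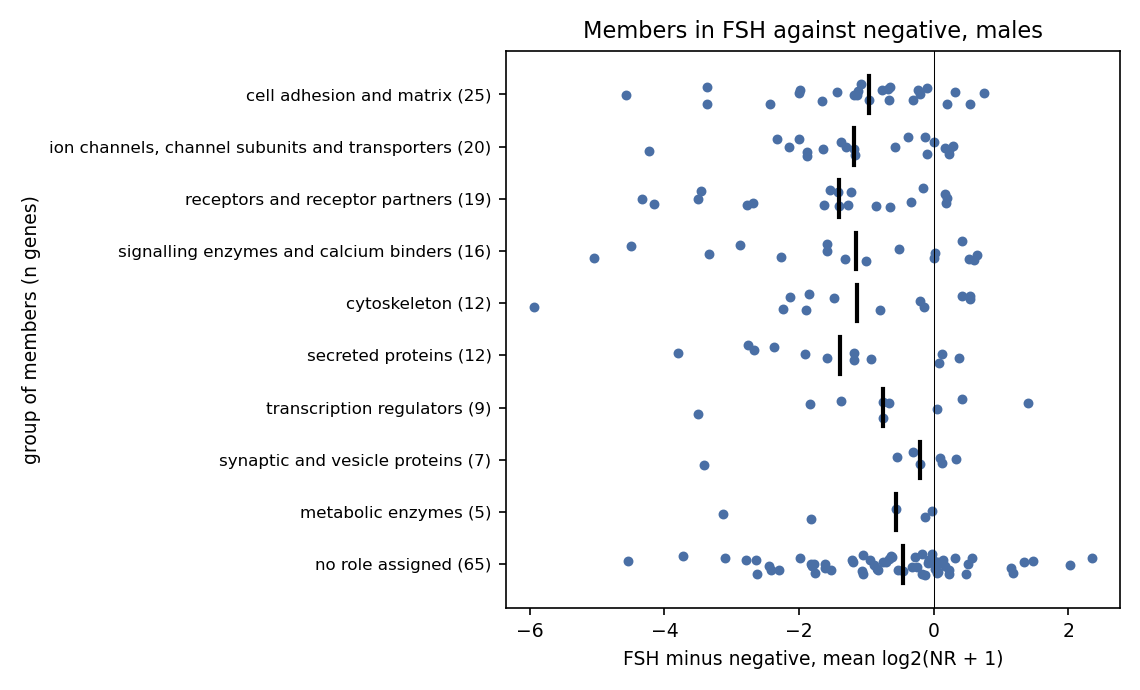
FSH minus negative difference of mean log2(NR + 1) for the 190 members, by group. Each point is a gene, moved up or down at random within its group to be visible, and black bars are medians. The medians run from -1.41 for receptors to -0.20 for synaptic and vesicle genes, and the members with no role assigned have a median of -0.46.

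A role could not be given to 65 members, most of them with a gene number only. The member with the highest LH level was one of these, LOC100705612 (linkage group 7, positions 16825247 to 16829027), with 2184, 4229, 6990.3 and 3185 NR in LH, 1136, 3912, 2894 and 453 NR in FSH and 586, 1286, 393 and 479 NR in negative libraries. LH and FSH libraries overlapped, as did FSH and negative libraries, and the LH libraries were above all negative ones. All 5 members called higher in FSH than in negative cells were in this group of 65. LOC100711670 had the highest FSH minus negative difference, 2.35, with 46.6, 22.5, 16.7 and 23.8 NR in LH, 18.7, 8.98, 7.37 and 11.99 NR in FSH and 3.21, 3.02, 0.878 and 0 NR in negative libraries. faim2b followed at 2.03, with 83.6, 32.3, 35.4 and 25.1 NR in LH, 14.98, 17.96, 9.83 and 10.8 NR in FSH and 2.14, 0, 2.64 and 11.2 NR in negative libraries. In these genes FSH cells stood between LH cells and the negative fraction, the reverse of the order of FSH and negative cells in obscna or gipc3.

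The remaining members with a large difference or a high level showed the same range of orders. LOC100705693 held 41.8, 287, 444 and 519 NR in LH, 11.2, 8.57, 15.97 and 2.40 NR in FSH and 94.3, 148, 134 and 105 NR in negative libraries, and LOC109202788, whose reads are uncertain because cep89 overlaps it, held 3.22, 58.99, 78.1 and 58.97 NR in LH, 1.87, 0.408, 0 and 0 NR in FSH and 8.57, 12.1, 14.9 and 10.1 NR in negative libraries. In both, LH library 1 was below every negative library, and without it LH minus negative was 1.76 rather than 0.95 and 2.43 rather than 1.44. sorcs3a, a sorting receptor known from neurons that LOC109202671 and LOC100707400 overlap, held 241, 419, 410.3 and 487 NR in LH, 75.8, 55.1, 60.2 and 38.4 NR in FSH and 145, 166, 85.2 and 151 NR in negative libraries, with no overlap between the fractions. LOC100703890 held 532, 681, 707 and 558 NR in LH, 404, 309, 276 and 200.3 NR in FSH and 342, 391, 249 and 218 NR in negative libraries. Its FSH and negative libraries overlapped and its LH libraries lay above both. ephb3, an Eph receptor of contact signalling, held 626, 509.8, 405 and 274 NR in LH, 201, 304, 199 and 149 NR in FSH and 269.9, 222, 123 and 149 NR in negative libraries. LOC100695464, which bcap29 overlaps, held 581, 333, 329 and 256 NR in LH, 271, 184, 117 and 113 NR in FSH and 139, 112, 85.2 and 128 NR in negative libraries. In these 2 genes LH library 1 was the highest library, and LH library 4 fell within the FSH range.

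The spread among LH libraries went with the order of the other fractions. The choice of members used the LH mean and not this spread, but it used the FSH and negative libraries, so the relation is a description. Among the 83 members called lower in FSH than in negative cells, LH library 1 was the lowest of the 4 LH libraries in 49 (59.0%) and the highest in 16 (19.3%). Among the other 107 members it was the lowest in 25 (23.4%) and the highest in 57 (53.3%). Over all genes of the table it was the lowest in 23.4% and the highest in 47.2%. Among the genes of both tables LH library 1 was likewise the lowest more often in those called lower in FSH than in negative cells. In the 91 of them called lower in FSH than in negative cells it was the lowest in 70.3% and the highest in 12.1%. In the other 79 it was the lowest in 38% and the highest in 35.4%. The median of LH library 1 minus the mean of LH libraries 2 to 4 on the log2(NR + 1) scale was -0.85 in the 83 members and 0.56 in the 107. In the genes of both tables the sign did not change, with medians of -0.70 in the 91 and -0.11 in the 79. Other fractions of the same number moved less. Medians were -0.06 in the 83 and 0.30 in the 107 for negative library 1 minus the other negative libraries, and 0.26 in both for FSH library 1 minus the other FSH libraries.

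**Figure D4:**
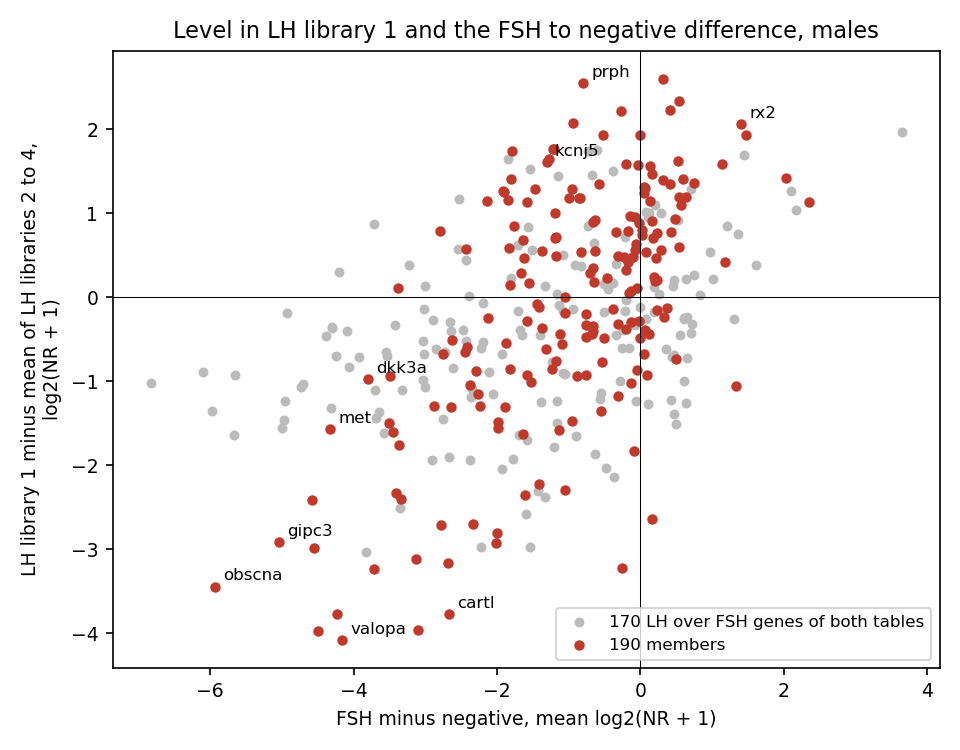
Each point is a gene, with FSH minus negative of mean log2(NR + 1) on the x axis and LH library 1 minus the mean of LH libraries 2 to 4, in log2(NR + 1), on the y axis. Red points are the 190 members and grey points are the 170 LH over FSH genes of both tables. Members with the lowest FSH minus negative differences, such as obscna at -3.45 and gipc3 at -2.92 on the y axis, lie at the bottom left.

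Across the 190 members these measures correlated at a Spearman rho of 0.54 and a Pearson r of 0.63. The points are genes that share the same 12 libraries, so this is a description without a p. The same rho was 0.40 over the 170 genes of both tables and 0.28 over all 2392 genes. In 21 members LH library 1 was below every negative library, and 18 of these were among the 83. The same held for 4 of the 170 genes of both tables and for 116 of all 2392 genes. The lowest were valopa, adcy2a, LOC109202788, cartl and scn4ab, at -4.08, -3.98, -3.96, -3.77 and -3.77 relative to the other LH libraries on the log2(NR + 1) scale. Among the highest were prph and rx2, at 2.55 and 2.06. lhb was the highest in LH library 1, and what sets this library apart was not tested.

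Leaving out LH library 1 moved the members in opposite ways. Without it cartl exceeded the negative fraction by 1.92 rather than 0.97, hrh2b by 1.66 rather than 0.86 and syn2 by 1.62 rather than 1.04. The LH minus FSH difference fell to 0.44 in tncb, 0.60 in slc30a8 and 0.85 in rx2, all named after these values were seen and all below the limit. In all, 170 of the 190 members still passed the limit and 20 did not, and the count called higher in LH than in FSH cells was 160 without this library and 176 with it. The count called higher than the negative fraction was 143 without it and 140 with it.

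Close to the limit the members kcng3 and LOC100709297 stood at 1.02 and 1.02, and the closest genes outside were npnt, sytl5 and LOC102076749, at 0.99, 0.99 and 0.95. Reads of LOC100709297 are uncertain because LOC112843508 overlaps it.

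The members lay on 21 linkage groups. RefSeq annotation of the assembly O_niloticus_UMD_NMBU matched 158 of them, 157 protein coding and 1 pseudogene, and 33 overlapped another annotated gene, so that reads could belong to either. Few windows of 1 Mb held 3 or more members. On linkage group 6, positions 18075348 to 18865498, lay lef1, LOC100696643 and LOC100696909, 3 of 4 table genes among 33 annotated genes.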

How the data were processed

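Mature transgenic males were sorted into LH, FSH and negative fractions in 4 sorts, which gave 12 libraries (24 with the females, whose table was used for its gene names). Per the labels and the methods, the authors used Trim Galore for trimming and STAR for mapping to O_niloticus_UMD_NMBU, and HTSeq is named in the processing notes. The strand setting of the counting is not given in the sources used here. The deposited signal is a normalized read count (NR), which the authors obtained by dividing each gene's reads by the library's DESeq2 size factor. The tables list only genes that exceeded the negative fraction in LH or FSH cells, and the authors' deposited columns of fold changes and p-values were not used. In the male table each gene name stands 1 row below its values and was moved. Reads were recovered, since 100% of NR came out as whole reads (tolerance 0.02 reads).

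Values of log2(NR + 1) entered a limma fit (version 3.58.1, R 4.3.3) with a trend, 3 groups of 4 libraries and no filter, and Benjamini-Hochberg adjustment ran over 2392 genes. The study's own test was DESeq2 on counts, and here limma was used because the files hold NR. Same-numbered fractions were taken to share a pool, and the deviations of same-numbered libraries from their group means correlated at 0.008 to 0.50. The scripts were tested on simulated data. Alternatives were edgeR 4.0.16 and DESeq2 1.42.0 on recovered reads, TMM scaling, a pseudocount of 5, a filter of 10 NR, a replicate block, 2 groups per fit, a fold limit of 2 on the log2 scale and leaving out each replicate. Leaving out LH library 1 and using only FSH libraries 3 and 4 were added after the data were seen. Tables and figures were made with Python 3.11.15, pandas 2.3.3 and matplotlib 3.10.9.

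The members and gene lists were chosen with earlier results of these data known. Values in every library are given for the 15 members with the largest LH minus FSH difference and the 15 with the highest LH level. Others are named by the largest difference in each role group (up to 6), the highest and lowest 5 FSH minus negative differences, the 3 on either side of the limit, list members and members in windows of 1 Mb, and exceptions are marked. Not all of these are printed, and some items are not reported here. Roles were assigned by hand from gene symbols for 125 members in 9 groups, because the annotation used holds no product descriptions. The limit of 3 reads covers counting error only, while the SD and the limma SE cover the spread between libraries. No sequences are printed.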

Additional observations from a re-analysis of the deposited data

Results flagged for a closer look

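In 1 of the 78 groups of 4 libraries behind the 26 genes with values in every library, a library stood further from the rest than Dixon's 95% limit for 4 values allows. It was strc1 in FSH library 2, at 4.08 NR against 0.936, 1.20 and 1.23 NR in the other FSH libraries, a gap of 0.907 of the range. Chance flags about 1 in 20 such groups, and over all members 40 of 570 groups (7.02%) passed the limit. The FSH values of strc1 are still all below its negative libraries.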

How the results depend on the processing

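No median over the members and no value of a single named member reversed under any alternative run. Scaling by TMM over the genes of the table, which were selected as higher than the negative fraction, raised the median LH minus FSH difference of all genes by 0.39. It moved the LH share of calls between LH and FSH from 36.7% to 55.1%. The larger side of these calls over the table thus changed, from 356 LH and 613 FSH genes to 440 LH and 359 FSH genes. With TMM 8 members were called higher in LH than in negative cells (140 in the report), 149 lower in FSH than in negative cells (83) and 0 higher in FSH than in negative cells (5). The medians were 2.73 for LH minus FSH, 0.39 for LH minus negative and -2.19 for FSH minus negative. A fold limit of 2 on the log2 scale left 106 members called higher in LH than in FSH cells, 25 higher in LH than in negative, 39 lower in FSH than in negative and 2 higher in FSH than in negative cells. A pseudocount of 5 gave medians of 1.75 for LH minus FSH and -0.58 for FSH minus negative, and 170 members, and DESeq2 gave a median LH minus FSH of 2.38. On recovered reads edgeR called 370 genes of the table higher in LH and 619 higher in FSH cells, against 356 and 613 with limma. FSH libraries 3 and 4 alone gave medians of 2.53 for LH minus FSH and -1.03 for FSH minus negative, 3 members called higher in FSH than in negative cells and 207 genes by the rule, 184 of them members. Leaving out each replicate in turn gave 149 to 165 members called higher in LH than in FSH cells, 90 to 151 higher in LH than in negative (90 without replicate 3 and 91 without replicate 2), 69 to 82 lower in FSH than in negative and 2 to 6 higher in FSH than in negative cells. The rule then found 186 to 195 genes, and 177 when LH library 1 alone was left out. With the replicate block, used because same-numbered fractions were taken to share a pool, 189, 155, 83 and 5 members were called in these comparisons. No count moved by over 1.5 times. Of 1014 values of single named members under 13 alternatives, 966 stayed within the spread between replicates, 48 moved and 0 reversed.

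The tables hold selected genes, so enrichment could not be tested. In 19 members all FSH libraries held 3 reads or fewer, so their FSH level, and the size of the LH minus FSH difference, is set by the limit of detection and the pseudocount. Negative libraries held the fewest reads on table genes, 173803 to 243837. Because the tables list only genes that exceeded that fraction, this does not measure sequencing depth. The DESeq2 size factors of negative libraries were 0.66 to 1.14, against 0.62 to 0.96 in LH libraries. Replicates are pools, so small differences between libraries cannot be traced to single fish.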
